A study of Mus musculus with 18 samples.

Results

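The chemokine genes of J774.1 macrophages, a mouse macrophage cell line, were taken as the rows whose gene symbol was Ccl2, Ccl3, Ccl4, Ccl5, Ccl6, Ccl7, Ccl9, Cxcl2, Cxcl16 or Ccrl2. Of these 10 symbols, 9 had a row in the table of 18204 genes, and all 9 lay above the expression limit that left 16383 genes for testing. Ccl7 was not analysed here. RNA-seq libraries came from 18 samples in 6 groups of 3. The groups were wildtype cells and cells with CRISPR knockout of both Ctbp1 and Ctbp2 (dKO), each given vehicle, 1.5 mM MTOB or 0.25 mM 4-Cl-HIPP for 4 hours. The dKO cells had been grown from edited colonies, and the number of colonies behind the 3 samples of a group was not given in the sources used here. The study's methods name both wildtype and knockout clones, and do not state whether the wildtype cells used were such a clone. Within a genotype, MTOB and 4-Cl-HIPP were read against the same 3 vehicle samples. Per the study's methods, MTOB was dissolved in PBS and 4-Cl-HIPP in DMSO. The study names the vehicle as PBS/DMSO and elsewhere as DMSO. CtBP1 and CtBP2 are corepressors of transcription that bind NAD(H). MTOB is a keto acid substrate of the CtBP dehydrogenase fold that inhibits at high concentration, and 4-Cl-HIPP is an inhibitor built on a chlorinated phenyl ring with a hydroxyimino group. The comparisons ask how losing both CtBPs, or treating with either compound, moved the transcripts of these chemokine genes, and whether the effect of each compound differed between the genotypes.

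Chemokines are small secreted proteins that draw leukocytes along a gradient by binding G protein coupled receptors, and macrophages are a main source of them in inflamed tissue. Ccl2 attracts monocytes through Ccr2. Ccl3, Ccl4 and Ccl5 attract monocytes and T cells, and Ccl6 and Ccl9 are rodent ligands of Ccr1. Cxcl2 attracts neutrophils through Cxcr2. Cxcl16 is made as a membrane protein that binds Cxcr6 and is released by the proteases Adam10 and Adam17. Ccrl2 is an atypical receptor that binds chemerin without classical signalling.

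Expression was read as TPM, a share of each library's transcripts that is already divided by transcript length, so levels of different genes can be set side by side. The read depth of the libraries is unknown, because TPM keeps no depth. Ctbp1 was 204 to 238 TPM in wildtype vehicle samples and 24.4 to 25.6 TPM in dKO vehicle samples, a log2 fold change of -3.07 (adjusted p = 1.61e-10), and Ctbp2 was 87.8 to 96.9 TPM against 73.5 to 79.4 TPM (log2 fold change -0.28, adjusted p = 0.00427). The Ctbp2 transcript was therefore largely present in the dKO samples, and transcript level does not measure an edited protein. The study reported loss of both CtBP proteins in the dKO cells by western blot. The summed level of the 7 of 8 listed macrophage markers with a row was 2220 to 2570 TPM over the groups. Csf1r (612 to 942 TPM), Cd68 (542 to 703 TPM) and Lyz2 (465 to 687 TPM) made up most of it, while Adgre1 and Itgam went as low as 6.7 and 11.3 TPM. Adgre1 was lower and Itgam higher in dKO than in wildtype under vehicle, by log2 fold changes of -1.59 and 1.57, and Adgre1 was higher with MTOB in wildtype (1.79), and their part in the chemokine results was not tested. Markers of the other cell types that had a row did not exceed 1.43 TPM in any sample.

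In wildtype cells given vehicle, Cxcl16 was the most abundant of the 9 transcripts. Its levels were 71.0, 68.6 and 71.2 TPM in replicates 1, 2 and 3. Ccl3 followed at 46.1, 33.0 and 37.4 TPM, and Ccl9 at 27.7, 20.5 and 29.9 TPM, with no overlap between neighbours in this order. Ccl4 was 12.5, 12.7 and 17.8 TPM, Ccl5 was 4.19, 3.74 and 3.82 TPM, and Cxcl2 was 2.18, 1.65 and 0.608 TPM. Each of these groups of 3 lay below the one before it. Ccl6, Ccrl2 and Ccl2 were under 1 TPM in all 3 vehicle samples, and their levels overlapped each other and, for Ccl6, the lowest Cxcl2 value.

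**Figure D1:**
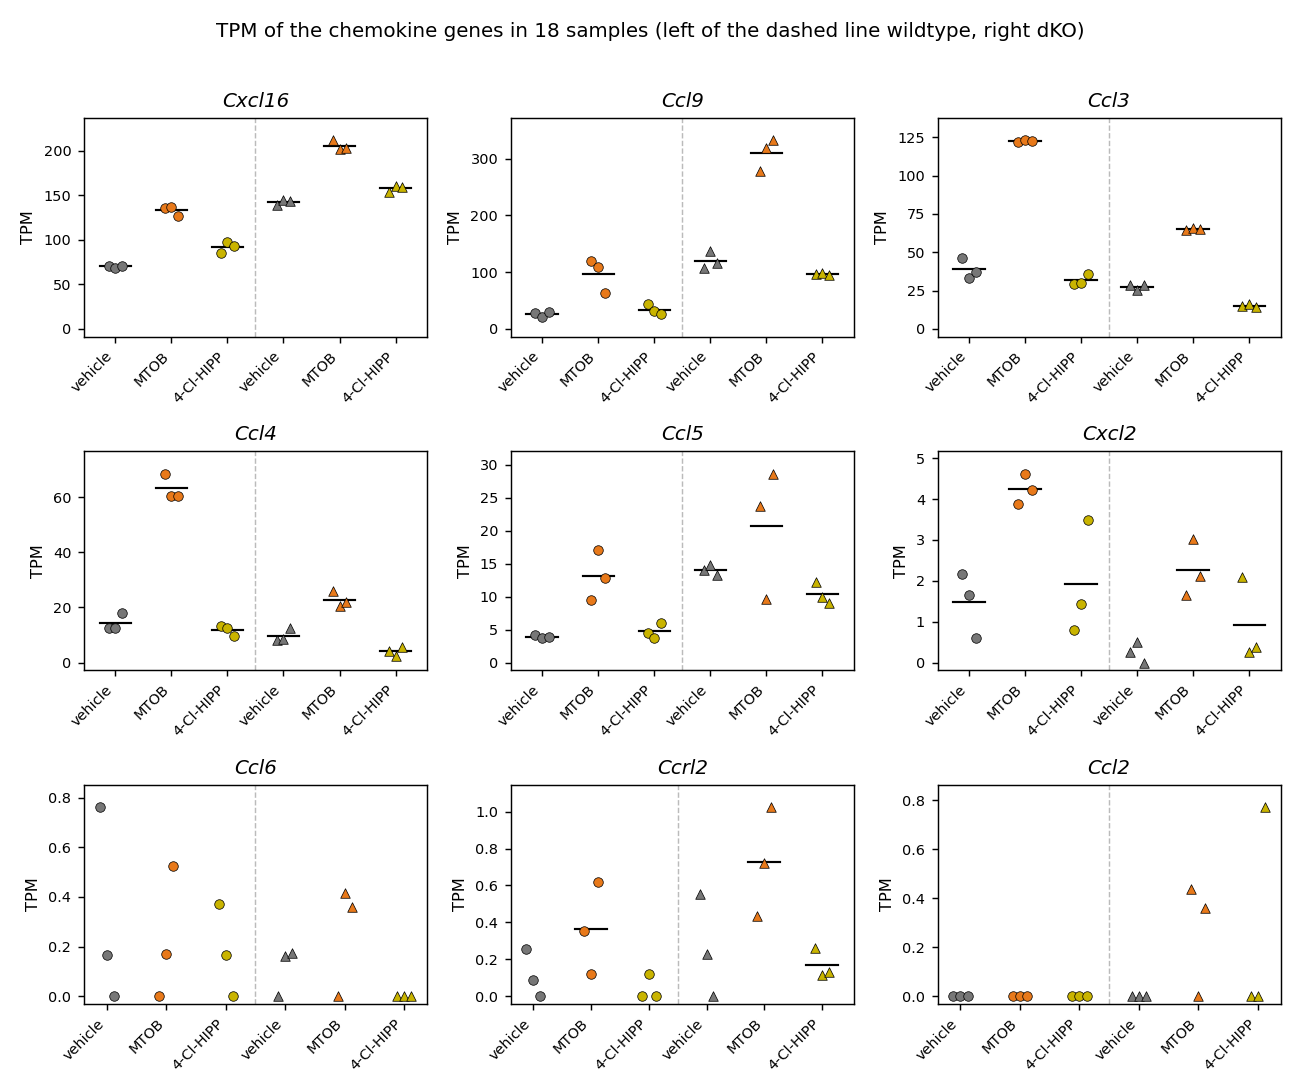
TPM of each of the 9 chemokine genes (vertical axis, linear, own scale for each gene) in the 18 samples, by treatment, with wildtype as circles left of the dashed line and dKO as triangles right of it. Each point is 1 sample and the bar is the group mean, drawn only where no sample is listed at 0; Ccl9 reaches 278 to 332 TPM in dKO cells given MTOB, while Ccl6, Ccrl2 and Ccl2 stay near 0.

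The order differed between genotypes and treatments. In dKO cells given vehicle the mean levels were 142 TPM for Cxcl16, 120 TPM for Ccl9, 27.7 TPM for Ccl3, 14.0 TPM for Ccl5 and 9.75 TPM for Ccl4, so that Ccl9 stood above Ccl3 and Ccl5 above Ccl4, the reverse of wildtype. Neighbours among these 5 did not overlap. In dKO cells given MTOB, Ccl9 (mean 310 TPM) stood above Cxcl16 (205 TPM) in all 3 samples, and Ccl4 (22.8 TPM) and Ccl5 (20.7 TPM) overlapped. In wildtype cells given MTOB the means were 133 TPM for Cxcl16, 123 TPM for Ccl3, 97.4 TPM for Ccl9 and 63.1 TPM for Ccl4, and Ccl9 overlapped Ccl4 because replicate 3 had only 62.6 TPM of Ccl9. In wildtype cells given 4-Cl-HIPP, Ccl9 (33.9 TPM) and Ccl3 (31.7 TPM) overlapped.

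The summed level of the 9 genes was 165, 140 and 161 TPM in wildtype vehicle samples, and 298, 332 and 315 TPM in dKO vehicle samples. With MTOB it was 461, 452 and 391 TPM in wildtype and 607, 621 and 655 TPM in dKO. With 4-Cl-HIPP it was 177, 177 and 175 TPM in wildtype and 283, 288 and 284 TPM in dKO. These are bulk libraries, in which fewer cells making a transcript and less RNA per cell cannot be told apart. The makeup of this sum moved as well as its size. Ccl9 was 14.6 to 18.6% of the summed TPM in wildtype vehicle samples and 35.9 to 41.6% in dKO vehicle samples, while Ccl3 went from 23.3 to 28% down to 7.67 to 9.62%. The ratio of Ccl9 to Ccl3 TPM was 0.601 to 0.798 in the former and 3.73 to 5.43 in the latter.

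**Figure D2:**
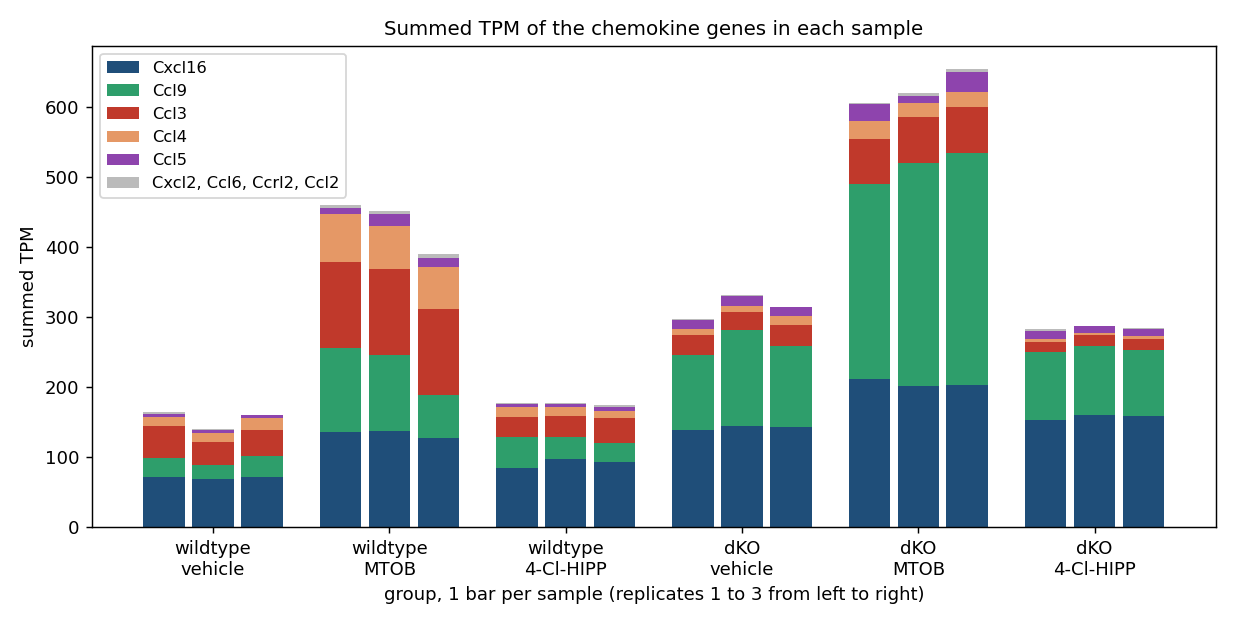
Summed TPM of the 9 chemokine genes (vertical axis, linear, from 0), with 1 stacked bar for each of the 18 samples and colours for the genes. The dKO bars given MTOB are the tallest at 607 to 655 TPM, and Ccl9 fills more of the dKO bars than of the wildtype bars.

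The chemokine genes differed between dKO and wildtype in both directions. Because the dKO cells, and possibly the wildtype cells, were grown from colonies, a difference between clones and the loss of the CtBPs cannot be told apart. Under vehicle, 3 of the 9 were higher in dKO than in wildtype (Cxcl16, Ccl9 and Ccl5), 1 was lower (Ccl3) and 5 did not pass an adjusted p of 0.05, where 10.7% of all genes tested passed (7.01% higher and 3.72% lower). The median log2 fold change of the 9 was 0.00, beside 0.01 over all genes tested. Under MTOB, 2 were higher and 2 lower, with 11.2% of all genes passing (6.98% higher and 4.18% lower). Under 4-Cl-HIPP, 3 were higher and 2 lower, with 10.2% of all genes passing (6.6% higher and 3.63% lower). Groups that did not overlap between genotypes were found in 26.1% of all genes under vehicle, 23.5% under MTOB and 25.2% under 4-Cl-HIPP. The medians of the 9 were 0.32 under MTOB and 0.17 under 4-Cl-HIPP, beside 0.003 and 0.005 over all genes tested. With 9 genes the median is the value of 1 gene. It was that of Ccl2 under vehicle and under MTOB, and of Ccrl2 under 4-Cl-HIPP. Both genes were at or near 0 TPM, so these medians do not describe the expressed members. The dKO and wildtype samples differ between these 3 comparisons, so each has its own controls.

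On the log2(TPM + 1) scale, Ccl9 had the largest genotype difference among the members that passed under vehicle. Differences of genes near or below 1 TPM come out too small on it, because of the added 1. Its levels in dKO vehicle samples were 107, 138 and 116 TPM, against 20.5 to 29.9 TPM in wildtype, with every dKO sample above every wildtype sample. The mean TPM was 4.63-fold higher. On the log2(TPM + 1) scale the difference was 2.18 with an SE of 0.21 (adjusted p = 3.82e-06). Under MTOB the dKO samples had 278, 319 and 332 TPM of Ccl9 and the wildtype samples 121, 109 and 62.6 TPM, a log2 fold change of 1.71 (adjusted p = 4.52e-05). Under 4-Cl-HIPP they had 96.2, 98.9 and 94.3 TPM against 43.2, 31.6 and 26.8 TPM, a log2 fold change of 1.51 (adjusted p = 0.000155).

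Cxcl16, the membrane-anchored ligand, differed less in size and more tightly between replicates. The dKO vehicle samples had 139, 144 and 143 TPM, all above the 68.6 to 71.2 TPM of wildtype, a 2.02-fold difference in mean TPM (log2 fold change 1.01, SE 0.05, adjusted p = 7.45e-10). Under MTOB the groups were again apart but by less, with 212, 202 and 203 TPM in dKO against 136, 137 and 127 TPM in wildtype (log2 fold change 0.62, adjusted p = 2.11e-07). Under 4-Cl-HIPP they had 154, 160 and 159 TPM against 85.3, 97.4 and 93.5 TPM (log2 fold change 0.77, adjusted p = 1.95e-08). Exons of Cxcl16 overlap those of Med11 and Zmynd15 on the opposite strand, and the library kit keeps no strand, so reads there cannot be told apart. Med11 was 50.4 to 65.4 TPM and Zmynd15 5.09 to 9.74 TPM over the 18 samples, and neither passed the test in any of the genotype or treatment comparisons.

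Ccl5 was 14.0, 14.8 and 13.3 TPM in dKO vehicle samples and 3.74 to 4.19 TPM in wildtype. The groups did not overlap, and the mean was 3.58-fold higher in dKO (log2 fold change 1.61, SE 0.30, adjusted p = 0.00182). Under MTOB the dKO samples had 23.7, 9.69 and 28.6 TPM and the wildtype samples 9.53, 17.1 and 12.8 TPM. These groups overlapped through replicate 2 of dKO, and the log2 fold change of 0.52 did not pass (95% confidence interval -0.12 to 1.16, adjusted p = 0.348). Without that sample it was 0.97 (adjusted p = 0.0114). Under 4-Cl-HIPP, Ccl5 was 12.2, 9.87 and 8.98 TPM in dKO against 4.52, 3.74 and 5.97 TPM, and all dKO samples were higher. This call was marginal (log2 fold change 0.99, adjusted p = 0.0486) and was lost when any 1 of the 6 samples was left out, with adjusted p from 0.0514 to 0.165. It did not pass in 13 of 15 alternative fits, which include other pseudocounts, median-ratio scaling and quantile normalization.

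Ccl3 and Ccl4, neighbouring genes of related ligands, went the other way. Ccl3 was 28.6, 25.4 and 28.9 TPM in dKO vehicle samples, all below the 33.0 to 46.1 TPM of wildtype (log2 fold change -0.46, SE 0.11, adjusted p = 0.00866). A fit with only these 2 groups, which has fewer samples to estimate the spread, gave an adjusted p of 0.121. Under MTOB, Ccl3 was 64.7, 65.6 and 65.4 TPM in dKO against 122, 123 and 123 TPM (log2 fold change -0.90, adjusted p = 2.53e-05). Under 4-Cl-HIPP it was 14.8, 16.0 and 14.6 TPM against 29.3, 29.9 and 35.8 TPM (log2 fold change -1.01, adjusted p = 7.23e-06). Every dKO sample was below every wildtype sample under each of the 3 treatments. Exons of Ccl3 overlap the opposite-strand long noncoding RNA gene Gm53692 over 276 bases, where reads of the unstranded libraries cannot be told apart.

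Ccl4 under vehicle was 8.19, 8.45 and 12.6 TPM in dKO and 12.5, 12.7 and 17.8 TPM in wildtype, and the groups overlapped narrowly. That difference did not pass (log2 fold change -0.52, 95% confidence interval -0.99 to -0.05, adjusted p = 0.18). Under MTOB it was 25.9, 20.5 and 22.0 TPM in dKO against 68.4, 60.6 and 60.4 TPM (log2 fold change -1.44, adjusted p = 0.000348). Under 4-Cl-HIPP it was 4.12, 2.47 and 5.48 TPM against 13.3, 12.7 and 9.47 TPM (log2 fold change -1.39, adjusted p = 0.000487). Under both compounds the dKO samples lay wholly below the wildtype samples.

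Cxcl2, the neutrophil attractant, was 0.246, 0.514 and 0 TPM in dKO vehicle samples against 0.608 to 2.18 TPM in wildtype. These groups did not overlap, but at this low level the log2 fold change of -0.95 did not pass (95% confidence interval -1.74 to -0.16, adjusted p = 0.137). The Cxcl2 differences under MTOB and 4-Cl-HIPP, -0.70 and -0.63 on the log2 scale, did not pass either (adjusted p = 0.294 and 0.379).

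**Figure D3:**
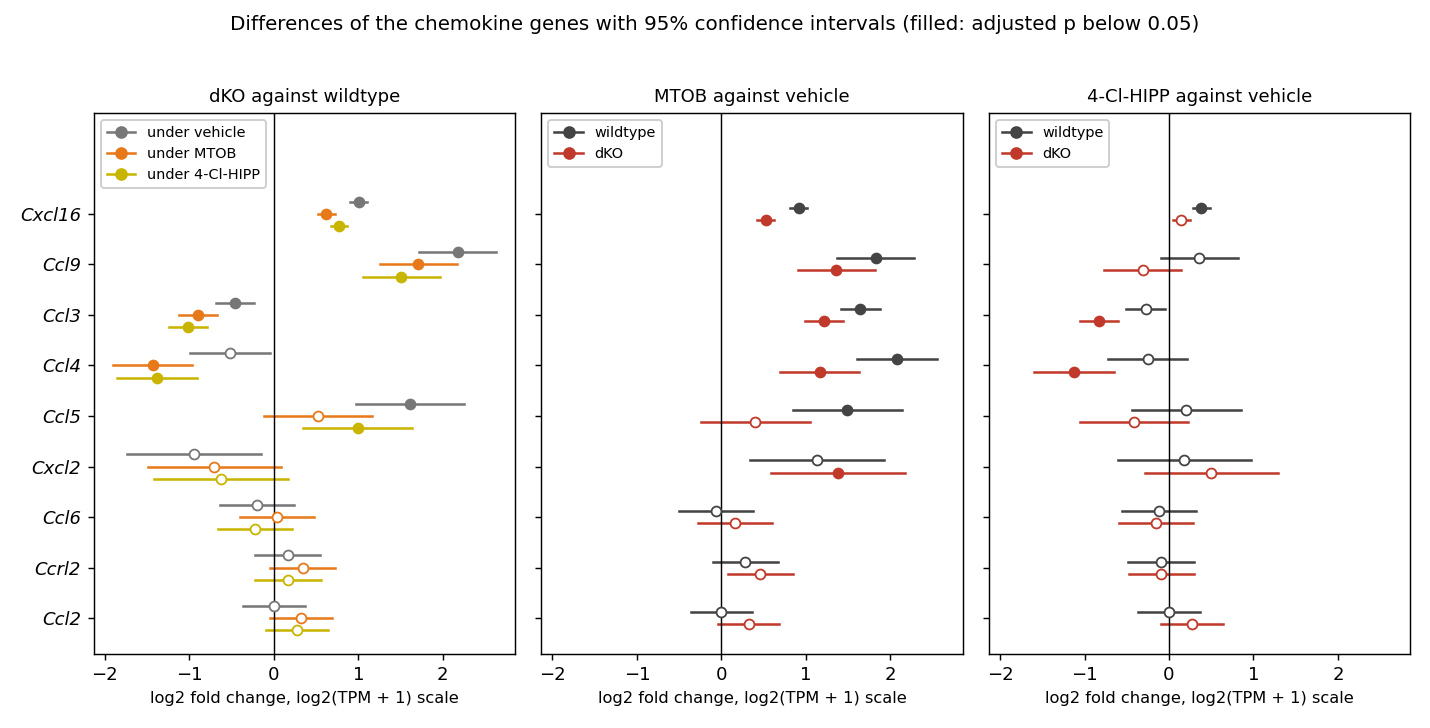
Log2 fold change on the log2(TPM + 1) scale (horizontal axis) of each of the 9 chemokine genes for dKO against wildtype, MTOB against vehicle and 4-Cl-HIPP against vehicle, with 95% confidence intervals and filled points where the adjusted p was below 0.05. Ccl9 lies furthest right for genotype (2.18 under vehicle) and Ccl3 and Ccl4 lie left of 0 there, while both lie right of 0 for MTOB.

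The genes that differed in opposite directions lie in the same stretch of the genome. In GRCm39, Ccl5 (chr11:83416602-83425942), Ccl9 (chr11:83463745-83473161), Ccl6 (chr11:83478708-83483913) and Ccl3 (chr11:83538670-83540191) are on the minus strand and Ccl4 (chr11:83553383-83555509) on the plus strand. These are the only 5 protein-coding genes that the GENCODE annotation places in the 139 kb from Ccl5 to Ccl4. Ccl5 and Ccl9 were higher in dKO under vehicle, and Ccl3, 65.5 kb from Ccl9, was lower. Ccl6, 5.55 kb from Ccl9, was under 1 TPM in all samples and did not pass in any comparison. Ccl4 lies 13.2 kb beyond Ccl3. Cxcl16 (chr11:70344517-70352620) and Ccl2 (chr11:81926397-81928279) lie elsewhere on chromosome 11, Cxcl2 on chromosome 5 (chr5:91051730-91053797) and Ccrl2 on chromosome 9 (chr9:110883554-110886591).

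**Figure D4:**
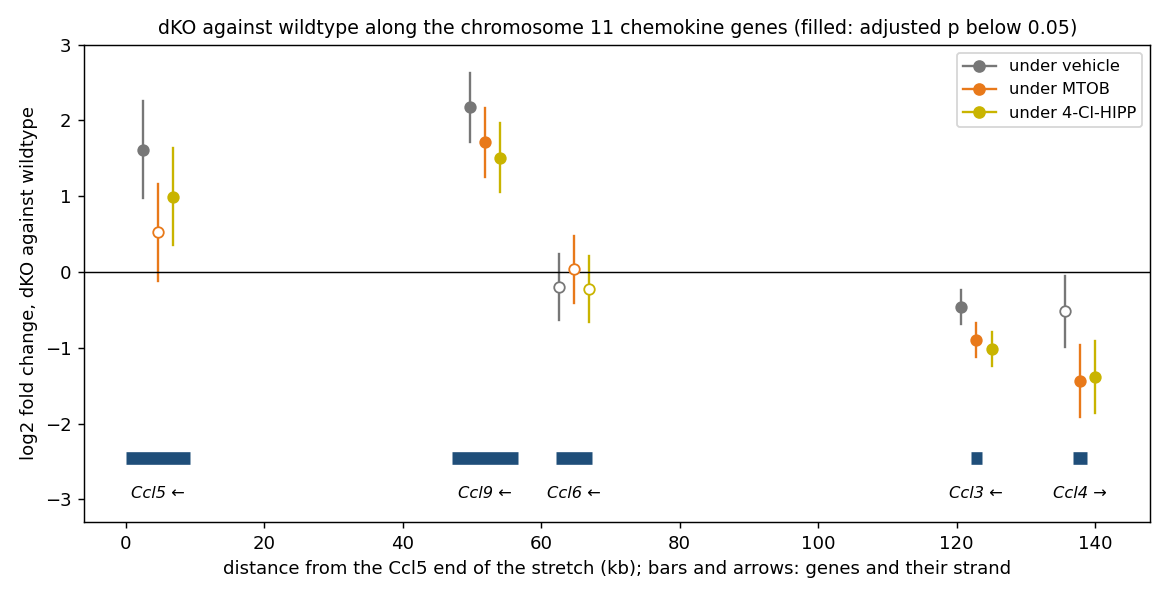
Log2 fold change of dKO against wildtype with its 95% confidence interval (vertical axis) for the 5 chemokine genes of the 139 kb stretch on chromosome 11, placed by their distance in kb from the Ccl5 end (horizontal axis), with bars for the genes and arrows for their strand. Ccl5 and Ccl9 lie above 0 and Ccl3 and Ccl4 below 0 under all 3 treatments, with filled points where the adjusted p was below 0.05.

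The sequences before the transcript starts of Ccl5, Ccl9, Cxcl2, Ccl3 and Ccl4, which each passed at least 1 comparison, are shown, because these genes moved in different combinations with genotype and with treatment. Each is 250 bases up to the start of the canonical GENCODE transcript, in GRCm39, written 5′ to 3′ on the strand of the gene, with matches to the NF-kB consensus in capitals.
Ccl5, minus strand, chr11:83421346-83421595: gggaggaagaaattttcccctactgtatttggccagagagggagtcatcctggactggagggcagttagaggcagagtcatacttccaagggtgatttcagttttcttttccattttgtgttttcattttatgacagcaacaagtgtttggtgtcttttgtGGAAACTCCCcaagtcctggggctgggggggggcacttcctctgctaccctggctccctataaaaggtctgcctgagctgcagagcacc
Ccl9, minus strand, chr11:83469468-83469717: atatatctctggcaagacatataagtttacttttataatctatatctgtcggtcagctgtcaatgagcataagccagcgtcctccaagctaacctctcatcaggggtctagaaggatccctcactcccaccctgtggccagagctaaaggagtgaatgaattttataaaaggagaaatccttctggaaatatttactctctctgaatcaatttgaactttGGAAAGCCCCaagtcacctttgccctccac
Cxcl2, plus strand, chr5:91051480-91051729: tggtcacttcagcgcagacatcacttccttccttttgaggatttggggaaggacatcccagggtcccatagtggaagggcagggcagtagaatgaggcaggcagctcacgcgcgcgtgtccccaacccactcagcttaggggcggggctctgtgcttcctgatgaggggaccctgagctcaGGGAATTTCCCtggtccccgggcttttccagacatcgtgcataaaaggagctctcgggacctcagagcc
Ccl3, minus strand, chr11:83540192-83540441: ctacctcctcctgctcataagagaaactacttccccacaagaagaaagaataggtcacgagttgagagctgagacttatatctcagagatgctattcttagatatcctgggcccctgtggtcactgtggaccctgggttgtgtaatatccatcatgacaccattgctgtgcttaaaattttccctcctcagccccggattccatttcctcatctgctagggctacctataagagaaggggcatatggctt
Ccl4, plus strand, chr11:83553133-83553382: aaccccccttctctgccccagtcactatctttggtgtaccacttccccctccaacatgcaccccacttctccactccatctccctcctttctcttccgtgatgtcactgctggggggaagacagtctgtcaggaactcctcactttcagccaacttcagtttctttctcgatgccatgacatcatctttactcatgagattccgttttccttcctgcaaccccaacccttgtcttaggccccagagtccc
The NF-kB consensus was searched on both strands and was found in Ccl5 (89 bases before the start), Ccl9 (30 bases before) and Cxcl2 (overlapping matches 69 and 68 bases before), and not in the windows of Ccl3, Ccl4, Ccl2, Ccl6 or Ccrl2. Of the windows of 12268 protein-coding genes tested, 8.49% hold a match. TGANTCA, the AP-1 site, was found among these 8 windows in Ccl9 (48 bases before the start), and 4.62% of all windows hold it. GAGGAAGT, a form of the PU.1 site, was found among them in Ccl5 (55 bases before), and 2.23% of all windows hold it. None of these matches overlapped one of another motif. TTGCNNAA, the C/EBP site, and the GAAA repeat of interferon response elements with any 2 bases between, are in 7.7% and 3.02% of all windows, and were found in none of the 8. No relation between these matches and the expression differences was tested.

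MTOB raised most of the expressed genes among the 9 in wildtype cells. Of the 9 genes, 5 were higher with MTOB than with vehicle (Ccl3, Ccl4, Ccl5, Ccl9 and Cxcl16), none was lower and 4 did not pass, where 7.26% of all genes passed (3.8% higher and 3.46% lower) and 22.6% had groups that did not overlap. The median log2 fold change of the 9 was 1.13, beside -0.01 over all genes tested. Ccl4 had the largest fold, from 12.5 to 17.8 TPM in vehicle samples to 68.4, 60.6 and 60.4 TPM with MTOB, a 4.4-fold rise in mean TPM (log2 fold change 2.08, SE 0.22, adjusted p = 1.95e-05). Ccl3 went from 33.0 to 46.1 TPM to 122, 123 and 123 TPM, 3.16-fold (log2 fold change 1.65, SE 0.11, adjusted p = 7.69e-08). The treated samples of both genes lay well above every vehicle sample.

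Among the ligands that were higher in dKO, Ccl9 rose with MTOB from 20.5 to 29.9 TPM to 121, 109 and 62.6 TPM in wildtype cells (log2 fold change 1.83, SE 0.21, adjusted p = 5.04e-05). Ccl5 rose from 3.74 to 4.19 TPM to 9.53, 17.1 and 12.8 TPM (log2 fold change 1.49, SE 0.30, adjusted p = 0.00563). Cxcl16 rose from 68.6 to 71.2 TPM to 136, 137 and 127 TPM (log2 fold change 0.91, SE 0.05, adjusted p = 5.62e-09). None of the 3 overlapped its vehicle group. Cxcl2 was 3.87, 4.62 and 4.23 TPM with MTOB, above all vehicle samples, with a log2 fold change of 1.13 that did not pass (95% confidence interval 0.34 to 1.92, adjusted p = 0.0859).

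In dKO cells 5 of the 9 genes were again higher with MTOB and none was lower, where 6.58% of all genes passed (3.04% higher and 3.54% lower) and 21% had groups that did not overlap, and the median of the 9 was 0.53, beside -0.01 over all genes. Ccl3 rose from 25.4 to 28.9 TPM to 64.7, 65.6 and 65.4 TPM (log2 fold change 1.21, adjusted p = 2.88e-06). Ccl4 rose from 8.19 to 12.6 TPM to 25.9, 20.5 and 22.0 TPM (log2 fold change 1.16, adjusted p = 0.00422; adjusted p = 0.0592 with only these 2 groups in the fit). Both stayed apart from their vehicle groups. Ccl9 rose from 107 to 138 TPM to 278, 319 and 332 TPM (log2 fold change 1.36, adjusted p = 0.000936), and Cxcl16 from 139 to 144 TPM to 212, 202 and 203 TPM (log2 fold change 0.53, adjusted p = 3.43e-06).

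Cxcl2 was the fifth gene to rise in dKO cells, from 0.246, 0.514 and 0 TPM to 1.65, 3.03 and 2.11 TPM (log2 fold change 1.38, SE 0.37, adjusted p = 0.0365). The groups did not overlap, but the size depended on the pseudocount, with log2 fold changes of 3.05 at 0.1 and 0.46 at 5 (adjusted p = 0.0646 at 5). The call was also lost when any 1 of the 6 samples was left out (adjusted p from 0.0528 to 0.135) and in the fit with only these 2 groups (0.0606). Ccl5, which passed in wildtype, did not pass in dKO (log2 fold change 0.40, 95% confidence interval -0.24 to 1.04, adjusted p = 0.539). Its treated samples had 23.7, 9.69 and 28.6 TPM against 13.3 to 14.8 TPM in vehicle samples, with replicate 2 below them and the other 2 above. Without that replicate the log2 fold change was 0.85 (adjusted p = 0.0359).

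Whether the effect of MTOB differed between genotypes was tested by the interaction of treatment and genotype, which passed in 15 genes, 0.0916% of those tested. Cxcl16 was among them and was the only one of the 9 chemokine genes. Its log2 fold change with MTOB was smaller in dKO than in wildtype, by a difference of -0.39 (SE 0.07, 95% confidence interval -0.53 to -0.25, adjusted p = 0.0388). On the TPM scale, where no test was run, both genotypes rose by a similar amount, from 70.3 to 133 TPM on average in wildtype and from 142 to 205 TPM in dKO. This call was lost in 11 of the 12 fits that each left out 1 sample, the exception being the fit without replicate 3 of wildtype given MTOB (adjusted p from 0.0527 to 0.136 in the others). The interaction was -0.44 for Ccl3 (unadjusted p = 0.011, adjusted p = 0.563), -0.92 for Ccl4 (0.0104 and 0.556) and -1.09 for Ccl5 (0.0217 and 0.669), none of which passed.

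4-Cl-HIPP moved few of these genes in wildtype cells. Cxcl16 alone of the 9 passed, where 0.366% of all genes passed (0.324% higher and 0.0427% lower) and 12.6% had groups that did not overlap. The median log2 fold change of the 9 was 0.00, beside 0.01 over all genes. It was the value of Ccl2, which was listed at 0 in all samples compared. Cxcl16 rose from 68.6 to 71.2 TPM to 85.3, 97.4 and 93.5 TPM, with no overlap (log2 fold change 0.38, SE 0.05, adjusted p = 0.00165; adjusted p = 0.188 with only these 2 groups in the fit). Ccl3 was 29.3, 29.9 and 35.8 TPM and overlapped its vehicle group (log2 fold change -0.28, 95% confidence interval -0.50 to -0.05, adjusted p = 0.48). Ccl4, Ccl5, Ccl9 and Cxcl2 had log2 fold changes of -0.25, 0.21, 0.36 and 0.18 and did not pass.

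In dKO cells 4-Cl-HIPP lowered Ccl3 and Ccl4, which were among the 5 genes that MTOB raised there. Ccl3 and Ccl4 were the only 2 of the 9 to pass, where 0.501% of all genes passed (0.403% higher and 0.0977% lower) and 13.7% had groups that did not overlap. The median of the 9 was -0.15, beside 0.004 over all genes. It was the value of Ccl6, a gene at or near 0 TPM. Ccl3 fell from 28.6, 25.4 and 28.9 TPM to 14.8, 16.0 and 14.6 TPM, a ratio of mean TPM of 0.547 (log2 fold change -0.83, SE 0.11, adjusted p = 0.00148; 0.064 with only these 2 groups in the fit). Ccl4 fell from 8.19, 8.45 and 12.6 TPM to 4.12, 2.47 and 5.48 TPM, a ratio of 0.412 (log2 fold change -1.12, SE 0.22, adjusted p = 0.0352). Neither overlapped its vehicle group. The Ccl4 call was lost in 5 of the 6 fits that each left out 1 sample, with adjusted p from 0.0636 to 0.162, and held without replicate 3 of dKO given 4-Cl-HIPP; it was 0.334 with only these 2 groups in the fit.

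The other 3 abundant genes of the 9 did not pass in dKO cells given 4-Cl-HIPP. Cxcl16 was 154, 160 and 159 TPM, above all dKO vehicle samples, with a log2 fold change of 0.15 (95% confidence interval 0.05 to 0.25, adjusted p = 0.282). Ccl9 and Ccl5 were below all their vehicle samples, with log2 fold changes of -0.31 (adjusted p = 0.768) and -0.41 (adjusted p = 0.789). In the test of whether the 4-Cl-HIPP effect differed between genotypes, limma called 0 of the 9 and 0% of all genes. An unadjusted p under 0.05 was found for 4.48% of all genes and for 4 of the 9 (Ccl3, Ccl4, Cxcl16 and Ccl9). Their interactions were -0.55, -0.87, -0.24 and -0.67 on the log2 scale, with adjusted p of 0.83 or higher. A share of 4.48% is no more than a limit of 0.05 gives when no gene differs, so no difference is read from these 4.

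The compounds were given at different doses, so their effects are set side by side without a test between them. For Ccl3 the log2 fold changes were 1.65 with 1.5 mM MTOB and -0.28 with 0.25 mM 4-Cl-HIPP in wildtype, and 1.21 and -0.83 in dKO. For Ccl4 they were 2.08 and -0.25 in wildtype, and 1.16 and -1.12 in dKO. For Cxcl16 they were 0.91 and 0.38 in wildtype, and 0.53 and 0.15 in dKO. Within each genotype these pairs share their vehicle samples.

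Ccl2, Ccl6 and Ccrl2 were at or near 0 and passed in no comparison. Ccl2, the monocyte attractant, was listed at 0 in 15 of the 18 samples, and the other 3 were dKO samples with 0.437 and 0.358 TPM under MTOB and 0.770 TPM under 4-Cl-HIPP. Its mean normalized count of 0.233 lay just above the limit of 0.222 set for testing. Ccl6 ranged from 0 to 0.761 TPM, and was listed at 0 in all 3 dKO samples given 4-Cl-HIPP. Ccrl2, the atypical receptor, ranged from 0 to 1.02 TPM, with 0.436, 0.720 and 1.02 TPM in dKO cells given MTOB. Those overlapped the wildtype MTOB values of 0.353, 0.122 and 0.621 TPM and the dKO vehicle values of 0.556, 0.231 and 0 TPM. The last of these differences did not pass (log2 fold change 0.46, adjusted p = 0.17).

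The rest of the chemokine system was read from a list of 71 other ligands, receptors, shedding proteases and receptor signalling genes, of which 30 could be tested. Of these 30, 6 were higher and 2 lower in dKO than in wildtype under vehicle, 6 higher and 3 lower under MTOB, and 6 higher and 3 lower under 4-Cl-HIPP. MTOB raised 1 and lowered 3 in wildtype and raised 2 and lowered 5 in dKO. 4-Cl-HIPP changed 0 in wildtype by limma and raised 1 in dKO. In wildtype 3 had an unadjusted p under 0.05, but the share of all genes at that limit was not counted, so nothing is read from it. The shares of all genes that passed are those given for each comparison above.

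Among the other ligands, Ccl22, which attracts T cells through Ccr4, was 1.59 to 2.75 TPM in dKO vehicle samples and at most 0.186 TPM in wildtype (log2 fold change 1.51 with the pseudocount of 1, which understates so low a level, adjusted p = 4.47e-05). It was higher in dKO under MTOB and 4-Cl-HIPP too (2.39 and 1.60), and rose with MTOB in dKO (0.83, adjusted p = 0.0141). Cxcl14 was 75.9 to 85.9 TPM in dKO vehicle samples against 42.0 to 46.1 TPM (log2 fold change 0.84, adjusted p = 2.96e-05) and rose with 4-Cl-HIPP in dKO to 108 to 131 TPM (log2 fold change 0.60, adjusted p = 0.0128). Both ligands were thus higher in dKO, in groups that did not overlap. With MTOB, Cxcl14 lay below all its vehicle samples, at 30.4 to 39.3 TPM in wildtype and 61.1 to 65.1 TPM in dKO. Neither difference passed (log2 fold change -0.32, adjusted p = 0.0702 in wildtype). Of the 6 other ligands tested, 0 passed with MTOB in wildtype, where 7.26% of all genes passed. Cxcl10, the interferon-induced ligand of Cxcr3, was 4.75 to 12.2 TPM in dKO vehicle samples and 16.8 to 20.9 TPM with MTOB, and did not pass (log2 fold change 1.02, adjusted p = 0.0548).

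Of the receptors of these ligands, Ccr1 was listed at 0 in all wildtype samples and was at most 0.197 TPM in dKO, and Cxcr2 was at most 0.270 TPM. Cxcr6, Cmklr1 and the chemerin gene Rarres2 were not analysed here. Ccr2, the receptor of Ccl2, had a median of 0.860 TPM in dKO vehicle samples and was at most 0.0767 TPM in wildtype ones (log2 fold change 0.84, understated in the same way, adjusted p = 0.00294). Among receptors of other ligands, Cxcr3 was 18.4 to 24.3 TPM in dKO vehicle samples and 2.55 to 3.57 TPM in wildtype (log2 fold change 2.43, adjusted p = 3.64e-08). Cx3cr1, the fractalkine receptor, was 67.0 to 73.7 TPM in dKO against 120 to 127 TPM in wildtype (log2 fold change -0.83, adjusted p = 1.61e-06). Of the 11 receptors tested, 2 were higher and 1 lower in dKO under vehicle, and 8 did not pass, where 10.7% of all genes passed.

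Adam10 and Adam17, the proteases that shed Cxcl16, moved oppositely with MTOB. Adam10 fell from 95.3 to 101 TPM to 66.6 to 73.7 TPM in wildtype cells (log2 fold change -0.50, adjusted p = 0.000312), and its log2 fold change in dKO was -0.32 (adjusted p = 0.0132). Adam17 rose from 77.9 to 90.1 TPM to 119 to 127 TPM in wildtype (log2 fold change 0.53, adjusted p = 5.87e-05), and by a log2 fold change of 0.55 in dKO (adjusted p = 5.34e-05). Under vehicle, Adam17 was lower in dKO (log2 fold change -0.30, adjusted p = 0.00471). Of the signalling genes behind the receptors, the kinase gene Grk6 and the G protein gene Gnai2 were lower with MTOB in wildtype (log2 fold changes -0.32 and -0.19) and in dKO (-0.24 and -0.17, adjusted p = 0.0487 and 0.0196). Pik3cg, a kinase gene used in leukocyte migration, was lower with MTOB in dKO (-0.42, adjusted p = 0.000233) and did not pass in wildtype (-0.14, adjusted p = 0.173).

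Across the 18 samples the chemokine genes fell into patterns that the levels above already show. Pearson's r of log2(TPM + 1) was 0.962 between Ccl3 and Ccl4 and 0.949 between Ccl9 and Cxcl16, but 0.102 between Ccl3 and Cxcl16 and 0.227 between Ccl3 and Ccl9. Ccl5 had an r of 0.867 with both Ccl9 and Cxcl16. Of 9716 genes with a mean of at least 5 TPM, Tnf, the gene of the inflammatory cytokine TNF, was closest in pattern to both Ccl3 (r = 0.988) and Ccl4 (0.965). After it came Stap1 (0.972) and Gm49339 (0.968) for Ccl3, and Ccl3 itself and Lilrb4a (0.955) for Ccl4. The 3 closest to Ccl9 were Nrp2 (0.967), Myadm (0.966) and Nab1 (0.964), and those closest to Cxcl16 were Akr1b8 (0.975), Bmf (0.967) and Itga5 (0.966). For Ccl5 they were Ctsl (0.923), Itpripl1 (0.916) and Usp18 (0.895), and for Cxcl2 they were Ppp1r9b (0.872), Irf8 (0.858) and Eif1a (0.855). These correlations describe the 18 samples, which are 6 groups of 3 and share their group differences.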

How the data were processed

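RNA from wildtype and dKO J774.1 cells was sequenced from unstranded mRNA libraries in biological triplicate. The labels name polyA RNA and the study's methods name rRNA depletion. Per the study's methods and the submitters' processing notes, the authors quantified transcripts with Salmon 1.9.0 on Gencode M28 (GRCm39), summarised them with tximport and tested them with DESeq2 1.44.0. The deposited values used here are TPM per sample, labelled scaled TPM. The authors' mean normalized count per gene, a signal over all samples, was used for the filter on low values. The authors' columns of log2 fold changes and adjusted p-values, which hold their comparisons, were not read.

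Genes above the 10th percentile of the mean normalized count (0.222) were kept. Log2(TPM + 1) was fitted with 6 group means over all 18 samples in limma 3.58.1 (R 4.3.3), with a variance trend on the mean normalized count. P-values were two-sided and adjusted by Benjamini-Hochberg over the 16383 genes tested, and genes passed at 0.05. Intervals are 95% confidence intervals of the log2 fold change or interaction. They rest on the spread between samples within the 6 groups, moderated over genes by limma, and do not cover differences between clones. No test of the counts could be run, because TPM holds no counts and the depth is unknown. Same-numbered replicates did not deviate together (correlations from -0.133 to 0.091), so they were not paired. Positions and windows before transcript starts came from GENCODE vM39 on GRCm39, in which 18087 of 18204 gene IDs were found.

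The chemokine genes, the pathway and marker lists and the 5 motifs were chosen with earlier results of these data known. All members are named, with receptors and proteases of the members, the pathway genes that passed a comparison (up to 4 a comparison by size) and, for each member that passed, the 3 genes of mean TPM at least 5 with the highest correlation. Alternatives were pseudocounts of 0.1 and 5, other filters, median-ratio scaling, quantile normalization, no variance trend, a replicate block, a fit of the compared groups only and leaving out each sample. A listed receptor and a promoter window are not reported here.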

Additional observations from a re-analysis of the deposited data

Results flagged for a closer look

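The effect of MTOB on Cxcl16 differed between the genotypes by the interaction of treatment and genotype, with a difference of -0.39 (dKO minus wildtype, SE 0.07, adjusted p = 0.0388) on the log2(TPM + 1) scale. It no longer passed in 15 of 21 alternatives. The mean level went from 70.3 to 133 TPM in wildtype and from 142 to 205 TPM in dKO, a similar rise on the TPM scale, where no test was run. All 3 treated samples were above all 3 vehicle samples in both genotypes.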

How the results depend on the processing

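Over the alternatives, 1296 values of the 9 genes were recomputed. Of these, 1245 kept their side of the threshold, 48 no longer passed, 3 newly passed and 0 turned the direction of a call. The 48 were among the 411 values of calls that passed in the main fit, of which 363 still passed. The other 885 values belonged to differences that had not passed, and 29 of them changed sign without a call. The number of genes passing for the MTOB effect between genotypes was 1 and fell to 0 with no variance trend, with median-ratio scaling, with the replicate block and in the fit of the compared groups only, and was 0 to 1 when 1 sample was left out. For 4-Cl-HIPP in dKO it was 2, with 1 at a pseudocount of 5, 0 in the fit of the compared groups only, and 1 to 2 when 1 sample was left out. In the fit of the compared groups only, MTOB in dKO gave 3 in place of 5 and 4-Cl-HIPP in wildtype gave 0 in place of 1; that fit estimates the spread from fewer samples. With the replicate block, the adjusted p was 0.0733 for the Cxcl16 interaction, 0.0595 for Cxcl2 with MTOB in dKO and 0.0648 for Ccl5 between genotypes under 4-Cl-HIPP, and it changed no other call of these genes. Cxcl2 with MTOB in wildtype passed at a pseudocount of 5 (adjusted p = 0.0371). In other cases the cause was not tested. Depth is unknown, so the precision of the low values of Ccl2, Ccl6, Ccrl2 and Cxcl2 could not be stated from counts.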
